A study of Mus musculus with 51 samples.

Results

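Allelic H3K36me3 was examined in the epiblast of wild-type mouse embryos at embryonic day (E) 6.5, with the question of which transcribed regions carried more of the mark on the chromosome from the mother or on that from the father. The regions were the 23959 autosomal H3K36me3 peaks of the epiblast, out of 144952 autosomal peaks in the 6 allelic tables of the series. Of these, 11076 could be tested, having 20 or more reads on the maternal or paternal side of some wild-type library. A parent effect was called in 17 of the 11076 peaks in a fit over both crosses, and in 7 when each cross had to pass on its own.

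The embryos were F1 hybrids of C57BL6/Babr (B6) and CAST/Ei (CAST) mice, written with the mother first. There were 2 H3K36me3 libraries of B6/CAST and 2 of CAST/B6, and each came from a pool of 4 epiblasts, about 2500 cells, from which the native chromatin for every antibody and for the input was taken. No allele was modified in these wild-type groups, and the pools are the unit of replication. The p-values measure the spread between the allele columns of these pools. The main fits did not pair the maternal and paternal column of a library. The cross matDKO/CAST is given beside them with 2 libraries; its mothers, of B6 and 129 background, had lost floxed Dnmt3a and Dnmt3b in the growing oocyte through Zp3-cre, a transgene expressed in oocytes, and its fathers were CAST. Extra-embryonic ectoderm (ExE), from pools of 8 of the same stage, served for comparison with another tissue. In the reciprocal crosses a parent effect keeps its parent, while a strain effect follows B6 or CAST into the other parent's column.

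H3K36me3 is placed on nucleosomes by SETD2, which travels with elongating RNA polymerase II, so the mark covers the bodies of transcribed genes and is commonly read as a trace of transcription. At imprinted genes one parental copy is transcribed and the other is silent, in most cases because a regulatory region carries DNA methylation inherited from one gamete. After fertilization this methylation is guarded by the zinc finger protein ZFP57, which binds a methylated TGCCGC hexamer. Imprinted domains often hold a long noncoding RNA transcribed from one parental chromosome and protein-coding genes transcribed from the other.

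Regulatory sequence beside 5 of the H3K36me3 regions called in each cross is shown first, because each lies in an H3K4me3 peak that was called for a parent in the same tissue and holds a stretch with 2 or more of the hexamers. Each is the stretch of 200 bases with the most TGCCGC hexamers in that peak, among stretches taken in regular steps outside exons of protein-coding genes, from RefSeq GRCm38, plus strand, 5′ to 3′, and capitals mark TGCCGC or its reverse complement GCGGCA. The first lies upstream of Meg3 at chr12:109528250-109528449, in an H3K4me3 peak of the maternal chromosome. The second lies in an intron of Grb10 at chr11:12036800-12036999, also in a maternal H3K4me3 peak. The other three lie in paternal H3K4me3 peaks, in introns of Peg3 at chr7:6730000-6730199 and Snrpn at chr7:60004350-60004549, and within Kcnq1ot1 at chr7:143295550-143295749, which is at the same time an intron of Kcnq1.
Meg3: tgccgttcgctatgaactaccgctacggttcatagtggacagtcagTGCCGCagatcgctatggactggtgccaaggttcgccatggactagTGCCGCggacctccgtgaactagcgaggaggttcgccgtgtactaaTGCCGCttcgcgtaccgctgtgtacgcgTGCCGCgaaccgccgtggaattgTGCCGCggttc
Grb10: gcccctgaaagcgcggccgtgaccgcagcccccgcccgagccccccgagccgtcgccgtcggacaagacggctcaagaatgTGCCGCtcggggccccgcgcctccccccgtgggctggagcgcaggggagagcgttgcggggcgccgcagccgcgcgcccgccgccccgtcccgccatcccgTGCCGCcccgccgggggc
Peg3: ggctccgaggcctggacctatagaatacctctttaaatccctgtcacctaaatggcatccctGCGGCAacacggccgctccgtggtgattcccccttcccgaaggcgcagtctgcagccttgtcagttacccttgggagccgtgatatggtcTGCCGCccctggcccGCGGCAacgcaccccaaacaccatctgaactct
Snrpn: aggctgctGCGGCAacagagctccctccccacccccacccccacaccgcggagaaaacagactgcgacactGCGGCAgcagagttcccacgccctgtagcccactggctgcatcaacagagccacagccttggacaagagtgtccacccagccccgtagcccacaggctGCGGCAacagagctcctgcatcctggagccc
Kcnq1ot1: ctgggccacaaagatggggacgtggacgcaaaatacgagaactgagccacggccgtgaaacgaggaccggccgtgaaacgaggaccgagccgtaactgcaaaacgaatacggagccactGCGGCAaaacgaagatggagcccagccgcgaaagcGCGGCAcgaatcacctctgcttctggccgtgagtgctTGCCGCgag

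The stretch upstream of Meg3 held 5 hexamers, those of Peg3, Snrpn and Kcnq1ot1 held 3 each, and that of Grb10 held 2. Among 675172 such stretches laid end to end over the 33329 autosomal epiblast H3K4me3 peaks, 4.14% held at least 1 hexamer, 0.334% at least 2, 0.0444% at least 3 and 0.000889% at least 5. The printed stretches were picked as the densest of their peaks, so these shares describe how common such stretches are and test nothing. Over the whole peak, 1.73% of H3K4me3 peaks were at least as dense in hexamers as the one of Peg3, 1.73% as that of Snrpn, 9.49% as that of Grb10, 9.63% as that upstream of Meg3 and 24.9% as that of Kcnq1ot1. Also called at these loci were 2 H3K4me3 peaks with sparse hexamers, not printed. The peak over the start of Meg3 (log2 -5.76) held 1, and 44.7% of peaks were at least as dense. That of Slc38a4 (log2 5.19) held 2, with at most 1 in any stretch searched, and 38.8% were at least as dense. A match is a run of letters and does not show that ZFP57 was bound.

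The libraries held 734539, 1712555, 1709765 and 1591651 autosomal allelic reads (B6/CAST 1 and 2, then CAST/B6 1 and 2, the order used for every set of values below, except that the CAST/B6 epiblast libraries of H3K4me3 are numbered 2 and 3), so B6/CAST 1 was the shallowest. The mark stood less clearly above its surroundings in B6/CAST: mean RPKM inside peaks was 3.1, 2.3, 3.6 and 3.5 times that outside. The paternal share of a whole chromosome lay between 47.6 and 50.0% in the B6/CAST libraries and between 50.5 and 52.0% in the CAST/B6 libraries, so no autosome stood apart in this mark. Epiblast markers summed to 10.8 to 14.2 RPKM of H3K36me3 over gene bodies in the epiblast libraries and 7.51 to 11.5 in ExE, while ExE markers summed to 5.12 to 5.83 and 9.77 to 12.6, visceral endoderm markers to 5.11 to 6.32 and 10.1 to 14.2, and decidua markers to 2.84 to 3.69 and 2.22 to 4.32. The epiblast markers Dnmt3b (mean 2.49 in epiblast, 3.06 in ExE), L1td1 (2.17, 2.49) and Utf1 (0.787, 0.910) were higher in ExE, the others lower. In bulk pools, fewer cells of a type and less of the mark per cell cannot be told apart.

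Most peaks showed nearly equal H3K36me3 on both parental chromosomes. Values are given as log2 of paternal over maternal reads after scaling, so that numbers above 0 mean more of the mark on the paternal chromosome. Over the 11076 peaks the median was -0.00, the SD 0.226 and the range from the 5th to the 95th percentile -0.36 to 0.36, against a median standard error (SE) of 0.189 for a single peak. An absolute log2 above 1 was reached by 22 peaks, 15 of them in the group of 3711 peaks with the fewest reads (48 to 170 over the 4 libraries). In that group the median SE was 0.283 and 2 peaks were called, while among the 3688 peaks with 431 to 5469 reads the median SE was 0.113 and 12 were called, so a modest bias could be detected only where reads were plentiful.

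The 17 called peaks were 0.153% of those tested (edgeR, adjusted p below 0.05 for the parent term with cross and strain in the model). Of them 11 carried more H3K36me3 on the paternal chromosome (0.0993%) and 6 on the maternal one (0.0542%). At an unadjusted p below 0.05 there were 508 peaks. The 17 peaks formed 14 loci when peaks of the same direction up to 100 kb apart were joined, 9 paternal and 5 maternal, and 12 of the peaks lay over a gene of a catalogue of 109 imprinted genes. The test within each cross called 68 peaks in B6/CAST (0.614%) and 348 in CAST/B6 (3.14%). In 7 of the 11076 the same parent was higher in both (0.0632%), 4 with the father higher and 3 with the mother higher. In 47 the same strain was higher in both (0.424%), with B6 higher in 20 and CAST higher in 27. The strain count was 25 with the library as a block, 15 to 24 without any 1 library and 1 with DESeq2, which called 4 peaks for a parent in both crosses and 10 in the joint fit.

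**Figure D1:**
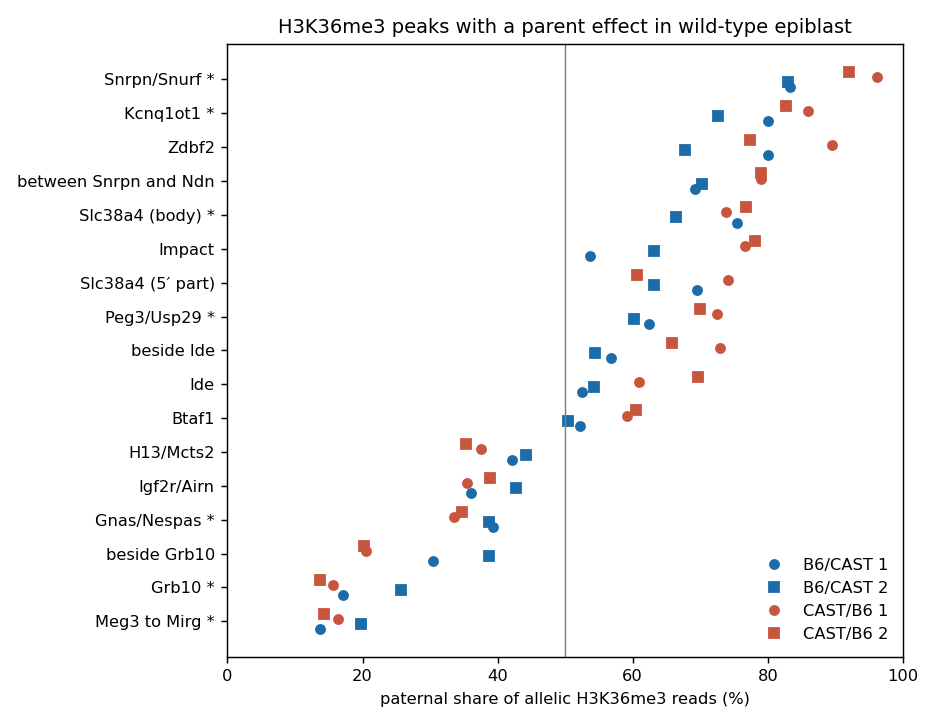
Paternal share of allelic H3K36me3 reads (%, x axis) at the 17 called peaks of wild-type epiblast (rows), 1 point per library; blue marks B6/CAST, red CAST/B6, and the circle and square are replicates 1 and 2. A star marks the 7 peaks called in each cross on its own, the grey line is at 50%, and the rows run from Meg3, at 13.7 to 19.8%, to Snrpn, at 82.9 to 96.1%.

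Among the maternally marked regions, the widest bias covered the noncoding RNA cluster downstream of Meg3. The peak at chr12:109524500-109749000 ran for 224.5 kb over Meg3, a long noncoding RNA, over Rian and Mirg, which carry small nucleolar RNAs and microRNAs, and over the retrotransposon-derived gene Rtl1, which is transcribed in the opposite direction from the paternal chromosome. It held 4585 allelic reads. The paternal share was 13.7, 19.8, 16.4 and 14.3%, so that all 4 libraries had fewer than 20% of the mark on the paternal chromosome and the crosses overlapped. The log2 ratio was -2.36 (SE 0.07, adjusted p = 7.02e-93), with -2.20 in B6/CAST and -2.54 in CAST/B6.

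Grb10, an adaptor that dampens insulin and insulin-like growth factor signalling, had the second widest maternal bias. At chr11:11927000-12036000 the paternal share was 17.1, 25.7, 15.6 and 13.7% over 1832 reads. The log2 ratio was -2.13 (SE 0.09, adjusted p = 6.85e-60), and the bias was smaller in B6/CAST (-1.67) than in CAST/B6 (-2.61), with a strain term of 0.48 (adjusted p = 0.000300). A second peak just upstream of the gene, at chr11:12044500-12069500, had paternal shares of 30.4, 38.7, 20.5 and 20.3% and a log2 ratio of -1.37 (SE 0.21, adjusted p = 2.64e-07). Both CAST/B6 libraries lay below both B6/CAST libraries at these peaks. Another peak farther upstream, at chr11:12087000-12093500, held only 77 reads and stopped short of the threshold at -1.62 (adjusted p = 0.102).

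The other maternally marked regions showed a partial bias, and each of them held genes transcribed from opposite parental chromosomes. The peak at chr2:174263000-174347500 spans Gnas, which encodes the stimulatory G protein alpha subunit, and its antisense transcript Nespas. Paternal shares there were 39.4, 38.7, 33.5 and 34.7%, with a log2 ratio of -0.80 (SE 0.08, adjusted p = 1.64e-15). At chr17:12682000-12753000, over Igf2r, a receptor that clears IGF2, and the start of Airn, the noncoding RNA that represses Igf2r in cis, they were 36.1, 42.7, 35.4 and 38.9% (log2 -0.66, SE 0.11, adjusted p = 1.09e-05). At chr2:152671000-152710000, over H13, a signal peptide peptidase, and Mcts2, a retrogene in an intron of H13, they were 42.2, 44.2, 37.5 and 35.4% (log2 -0.59, SE 0.11, adjusted p = 0.000271), and this call was lost with DESeq2 and without replicate 2 of either cross. All 4 libraries lay below 50% at each of these 3 peaks. Reads of overlapping transcripts were counted together, so their shares mix both genes.

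The strongest paternal bias lay over Snrpn, which encodes a core splicing protein, and the upstream reading frame Snurf. At chr7:59966500-60004000 the paternal share was 83.3, 82.9, 96.1 and 92.0% over 704 reads, and both CAST/B6 libraries were above both B6/CAST libraries. The log2 ratio was 3.12 (SE 0.15, adjusted p = 5.02e-51), with 2.34 in B6/CAST, 3.89 in CAST/B6 and a strain term of -0.77 (adjusted p = 0.00314). A peak over no annotated gene at chr7:61493000-61506500, 840069 bp from the nearest catalogue gene in the interval between Snrpn and Ndn, had shares of 69.2, 70.2, 78.9 and 79.1% over 154 reads (log2 1.55, SE 0.26, adjusted p = 5.47e-06). The 4 libraries again lay on one side, well above 50%, and the call was lost with DESeq2.

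Kcnq1ot1, the noncoding RNA that silences its neighbours in cis, and Zdbf2, a zinc finger gene, followed. At chr7:143240500-143296000, within Kcnq1ot1 and an overlapping part of Kcnq1, the paternal share was 80.0, 72.6, 86.0 and 82.8% (log2 1.98, SE 0.13, adjusted p = 2.74e-35). At chr1:63279000-63286500, within Zdbf2, it was 80.0, 67.7, 89.5 and 77.4% over only 115 reads (log2 1.85, SE 0.32, adjusted p = 2.73e-05). The crosses overlapped at Zdbf2 and did not overlap at Kcnq1ot1. The Zdbf2 call was lost with DESeq2 and without CAST/B6 replicate 1.

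The amino acid transporter gene Slc38a4, the translational regulator Impact and the zinc finger gene Peg3 had intermediate values. In the body of Slc38a4, at chr15:96994500-97024500, the paternal share was 75.4, 66.4, 73.8 and 76.8% (log2 1.37, SE 0.15, adjusted p = 8.28e-15). Nearer its start, at chr15:97034500-97056000, it was 69.6, 63.2, 74.1 and 60.6% (log2 0.98, SE 0.20, adjusted p = 0.00111), and at both peaks the crosses overlapped. The call nearer the start was lost with DESeq2, without B6/CAST replicate 2 and without CAST/B6 replicate 1. At chr7:6701500-6779000, over Peg3 and the divergently transcribed deubiquitinase gene Usp29, it was 62.4, 60.1, 72.5 and 70.0% (log2 0.97, SE 0.10, adjusted p = 7.26e-16). Impact stood at 53.6, 63.1, 76.7 and 78.1% (log2 1.17, SE 0.15, adjusted p = 3.17e-10), with a strain term of -0.53 (adjusted p = 0.0240). At Impact and Peg3 every CAST/B6 library was above every B6/CAST library.

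All 17 called peaks had the smaller absolute log2 ratio in B6/CAST, the cross in which the mark also stood less far above its surroundings. The strain term, which takes up such a difference between crosses, was called at 3 of them, Grb10, Impact and Snrpn, against 493 of all 11076 peaks (4.45%; CAST higher in 220 or 1.99%, B6 higher in 273 or 2.46%). The count of 493 and its split by strain changed widely with the processing, as given further below. The part of the weaker enrichment in the smaller ratios was not tested.

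**Figure D2:**
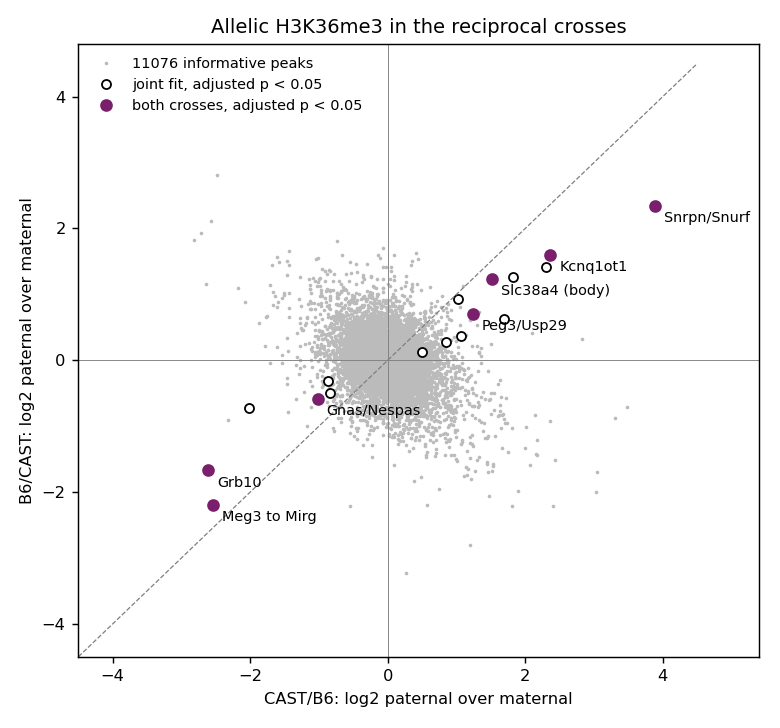
Log2 ratio of paternal over maternal H3K36me3 reads in CAST/B6 (x axis) and B6/CAST (y axis), each fitted on its own, for the 11076 informative peaks (grey), the 7 called in both crosses (purple, named) and the other peaks called in the joint fit (open circles); the dashed line marks equal ratios. All 17 lie nearer to 0 on the y axis than on the x axis, and grey points running from upper left to lower right follow the strain.

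The remaining calls lay on chromosome 19, more than 1 Mb from any catalogue gene, and had small ratios. Over Ide, which encodes insulin-degrading enzyme, at chr19:37301500-37334000, the paternal share was 52.4, 54.3, 61.0 and 69.7% (log2 0.56, SE 0.12, adjusted p = 0.00242). Beside it, at chr19:37342500-37356500, it was 56.8, 54.4, 72.9 and 65.8% (log2 0.72, SE 0.18, adjusted p = 0.0401). Over Btaf1, which encodes an ATPase that removes TATA-binding protein from DNA, at chr19:36927000-37016500, it was 52.2, 50.4, 59.1 and 60.5% (log2 0.32, SE 0.08, adjusted p = 0.0401). In each case the B6/CAST libraries were close to 50% and the CAST/B6 libraries, in which the father was B6, were higher. The Btaf1 peak and the one beside Ide lost the call without any 1 of the 4 libraries, the Ide peak without replicate 2 of either cross, and all 3 with DESeq2. The Btaf1 peak and the one beside Ide were also lost without the filter on low read counts.

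At these chromosome 19 peaks the inputs were uneven too. Input RPKM over the Ide peak, relative to the median of 25 kb bins of the same library, was 1.71, 1.13 and 1.24 in the B6/CAST epiblast inputs of pools 1, 2 and 3, and 1.50, 1.60 and 1.38 in the 3 CAST/B6 epiblast inputs. In ExE it was 1.22 and 1.16 in B6/CAST and 1.51 and 1.78 in CAST/B6. The B6/CAST H3K36me3 libraries were made from pools 3 and 2, per the study's sample sheet, which are the pools with the lower input there. Over Btaf1 the epiblast inputs stood at 1.38, 1.14 and 1.22 in B6/CAST and at 1.34, 1.50 and 1.20 in CAST/B6. The part of the input signal in the 3 calls was not tested. Inputs also varied at other called peaks: the 6 epiblast inputs ran from 1.11 to 1.52 at the peak upstream of Grb10, from 1.12 to 1.45 over Grb10, from 0.988 to 1.37 at Zdbf2, from 1.09 to 1.14 at Meg3 and from 0.775 to 1.03 at Snrpn.

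**Figure D3:**
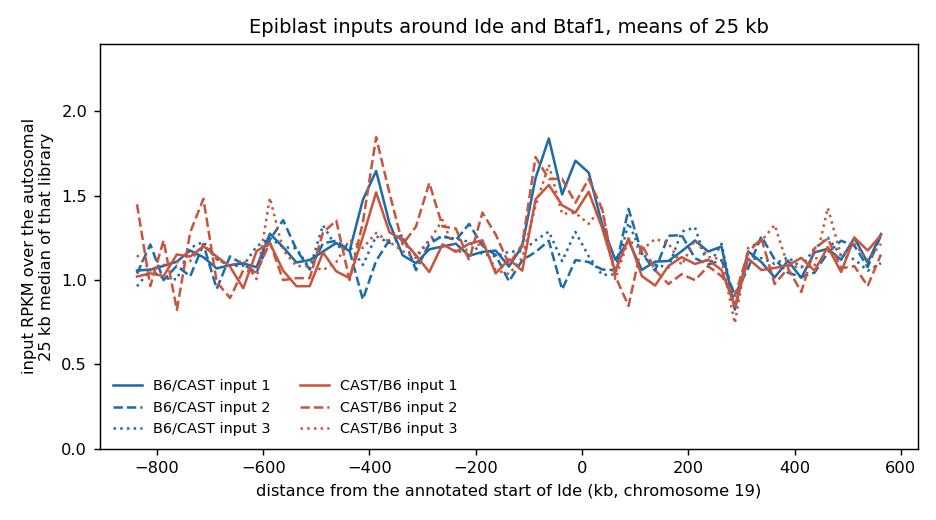
Epiblast input RPKM in 25 kb bins divided by the autosomal median of that library (y axis) against the distance from the annotated start of Ide on chromosome 19 in kb (x axis), 1 line per input, blue for B6/CAST and red for CAST/B6. B6/CAST input 1 and the CAST/B6 inputs rise around Ide, where they stand at 1.38 to 1.71 over the Ide peak, while B6/CAST inputs 2 and 3 stay at 1.13 and 1.24.

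The nearest peaks below the threshold were also weak. A peak in the kinase gene Cdkl4 at chr17:80554500-80568000 had paternal shares of 58.3, 60.0, 72.0 and 69.6% (log2 0.91, adjusted p = 0.0614). A peak at chr11:22966000-22980000 over the retrogene Zrsr1 and its host Commd1 had 43.2, 27.8, 43.4 and 41.2% (log2 -0.73, adjusted p = 0.0995). In each, all 4 libraries lay on the same side of 50%.

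Summing the peaks over each gene body gave 11428 informative genes, of which 35 were called (0.306%), 17 with the paternal chromosome higher (0.149%) and 18 with the maternal one higher (0.158%). These 35 genes rested on only 16 distinct sets of peaks, since neighbouring and overlapping genes share reads. One of those sets holds the 9 genes over the Meg3 peak. Of the 109 catalogue genes, 56 lay over a peak and 47 were informative, and 18 of the 47 were called. In 13 the catalogue's expressed allele carried more of the mark, while Rtl1, Mcts2, Airn, Nespas and Kcnq1 stood on the other side, each in a peak shared with a gene of opposite parental expression. A further 17 called genes were not in the catalogue, 4 of them on peaks more than 1 Mb from it: Ide, Btaf1, Cdkl4 and AC131712.1, which shares the Cdkl4 peak (log2 0.91, adjusted p = 0.0398). All 4 calls were lost with DESeq2. Those of Cdkl4, AC131712.1 and Btaf1 were also lost without any 1 library, and that of Ide without replicate 2 of either cross.

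Among paternally expressed coding genes, 13 of 25 were informative, 6 were called paternal and 2 maternal, beside 0.149% paternal and 0.158% maternal calls over all 11428 genes, and the median log2 was 0.45 against 0.00 over all genes. The 6 were Snrpn (3.12), Zdbf2 (1.59 over its 2 peaks), Slc38a4 (1.24), Impact (1.17), Peg3 and Usp29 (0.97 each), and the 2 were Rtl1 and Mcts2. Not called were Mest, a hydrolase gene of the mesoderm (0.45, in a peak it shares with Copg2), the sarcoglycan gene Sgce (0.39), the phosphatase gene Inpp5f (-0.16), the nucleosome assembly gene Nap1l5 (-0.25) and Zrsr1 (-0.73). The 6 paternally expressed genes grouped as noncoding or other had 5 informative members, to be read against the same shares over all genes: Kcnq1ot1 (1.98) and Snhg14 (2.33) were called paternal, Airn (-0.52) and Nespas (-0.80) maternal, and Gpr1, which encodes a chemerin receptor, stood at -0.03. The Airn call was lost with DESeq2 and without CAST/B6 replicate 1, and the Igf2r call was lost without CAST/B6 replicate 1.

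Among maternally expressed coding genes, 15 of 28 were informative, with 4 called maternal and 1 called paternal, beside 0.158% and 0.149% of all genes, and a median log2 of -0.15 against 0.00. Grb10 (-2.13), Gnas (-0.80), Igf2r (-0.59) and H13 (-0.59) were the maternal calls, and Kcnq1 (1.98), whose only peak lies within Kcnq1ot1, was the paternal one. Not called were the ubiquitin ligase gene Ube3a (-0.02), which is imprinted in neurons, the flippase gene Atp10a (0.06), the copper metabolism gene Commd1 (-0.34), the trafficking gene Trappc9 (-0.33), the calcitonin receptor gene Calcr (-0.27), the nucleosome assembly gene Nap1l4 (-0.15), Asb4 (-0.11), Ppp1r9a (-0.02), Copg2 (-0.01) and Casd1 (0.05). The noncoding RNAs Meg3, Rian and Mirg were all called on the one peak, and H19, the fourth gene of the list, had no peak. Of the 10 genes that host or border an imprinted internal promoter, 9 were informative, with 3 called maternal and 1 paternal, beside 0.306% called of all genes, and a median of -0.33. Herc3, which hosts Nap1l5, stood at -0.25.

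The group of 8 genes known for imprinting in ExE without inherited DNA methylation had 7 informative members, 1 of which, Slc38a4, was called, against 0.306% of all genes. All 7 lay above 0, with a median of 0.25, where 5754 of the 11428 genes did and the median was 0.00, and the uncalled ones were Sfmbt2 (0.45), Gab1 (0.28), Smoc1 (0.25), Sall1 (0.14), Zfp64 (0.08) and Jade1 (0.03). Beside a share of 0.306% over all genes, no call was made among the 15 epiblast genes, all informative (median -0.04), the 13 informative of 14 genes of H3K36 methylation and its readers (median -0.03), or the 7 informative of 8 genes of imprint maintenance (median -0.03). The informative markers of epiblast (8), ExE (3), visceral endoderm (3) and decidua (1) gave no call either. Among epiblast genes the ratio ran from -0.39 at Utf1, -0.37 at Tdgf1, -0.18 at Otx2, -0.16 at Sall4, -0.15 at Pou5f1, -0.13 at Dnmt3a and -0.09 at Fgf5 through -0.04 at Jarid2, -0.00 at Nanog and Dnmt3b at 0.00 to Lin28b at 0.01, Lin28a at 0.03, Trim71 at 0.05, Foxp1 at 0.10 and L1td1 at 0.22. Among the genes of H3K36 methylation the demethylase genes Kdm2a (-0.13), Kdm4c (-0.08), Kdm4a (-0.06) and Kdm2b (-0.03) and the methyltransferase genes Nsd1 (0.01), Ash1l (0.02), Setd2 (0.03), Nsd3 (0.07) and Nsd2 (0.10) lay close to 0, as did Supt6 (-0.03) and Iws1 (0.15) of transcription elongation. The maintenance genes were Dppa3 (-0.47, on 126 reads), Dnmt1 (-0.07), Uhrf1 (-0.05), Zfp445 (-0.03), Setdb1 (0.03), Ctcf (0.10) and Trim28 (0.22). The markers of other cell types were Elf5 (-0.24), Ets2 (-0.19) and Eomes (0.12) of ExE, Ttr (-0.60, on 116 reads), Cubn (-0.01) and Gata4 (0.04) of visceral endoderm, and Bmp2 (0.11) of decidua. Setd2, which encodes the H3K36 methyltransferase, had paternal shares of 55.5, 49.2, 49.6 and 49.7%, and the pluripotency gene Lin28a 52.8, 47.1, 52.7 and 51.4%. L1td1, another epiblast gene, had 45.2, 41.0, 64.2 and 65.5%, a pattern that follows the strain.

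Of the 108 catalogue genes found in the annotation, 52 had no epiblast H3K36me3 peak, among them H19, Igf2, Dlk1, Ndn, Magel2, Plagl1, Rasgrf1, Phlda2 and Ascl2, so their allelic state was not measured by this mark. Total H3K36me3, as the mean RPKM of the 1 kb windows over the gene body, averaged 0.486 at H19, 0.406 at Igf2, 0.377 at Dlk1 and 0.410 at Plagl1 in the 4 epiblast libraries. At called genes it averaged 2.27 at Gnas, 1.54 at Peg3, 1.43 at Meg3, 1.30 at Grb10, 0.910 at Kcnq1ot1, 0.789 at Zdbf2, 0.765 at Slc38a4 and 0.426 at Snrpn. Mean RPKM outside peaks was 0.331 to 0.381 per library. The annotated body of Snrpn reaches well beyond its peak, and Snurf, on the same peak, averaged 0.983.

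Of the catalogue genes, 6 had at least 3 informative peaks and so allowed the bias to be followed along the gene: Ppp1r9a, Copg2, Commd1, Pde4d, Tbc1d12 and Arid1b. No peak of these was called. In Copg2 the ratio was -0.27 at 16 kb from the start and 0.45 (SE 0.22) at 154 kb, where the peak also covers Mest. In Commd1 it was -0.73 (SE 0.19) at 9.38 kb, over Zrsr1, 0.15 at 29.1 kb and -0.24 at 74.9 kb. Tbc1d12 had paternal shares of 33.3, 43.0, 65.7 and 59.1% at its first informative peak and followed the strain at all 3.

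The other histone marks measured in the same tissue were not used in choosing the H3K36me3 peaks. Of the 14 loci, 7 had an H3K4me3 peak called for the same parent when the peak with most reads within 10 kb of the gene was taken, 2 had one called for the other parent and 3 had one that was not called, while Ide had no informative H3K4me3 peak and the region without a gene was not assigned one. Over all tests, 40 of 20328 H3K4me3 peaks were called (0.197%), 33 paternal (0.162%) and 7 maternal (0.0344%). H3K27me3, read from the peak with most reads over the gene or its H3K36me3 peak, was called for the opposite parent at 5 loci and for the same parent at 1. At Igf2r the call came through the peak of Airn (1.05, adjusted p = 8.28e-07), while that of Igf2r itself stood at 0.57 (adjusted p = 0.664). A peak with fewer reads inside the H3K36me3 region, at chr17:12742000-12744000, was also called paternal (2.92, adjusted p = 3.54e-05). The other loci with a gene had no informative peak. In all, 67 of 8924 H3K27me3 peaks were called (0.751%), 56 paternal (0.628%) and 11 maternal (0.123%). H3K4me3 marks promoters in use and H3K27me3, set by Polycomb, marks silenced ones.

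At Peg3, Snrpn, Kcnq1ot1 and Slc38a4, H3K4me3 was almost all paternal. Impact had peaks of unlike pattern, and Zdbf2 and Btaf1 differed. The paternal share was 99.3, 97.9, 99.8 and 98% at Peg3 (log2 6.82, adjusted p = 1.22e-14), 97.2, 99.5, 99.6 and 98.1% at Snrpn (6.52, 8.45e-15) and 98.1, 96.3, 97.2 and 99.2% at Kcnq1ot1 (5.24, 1.22e-14). At Slc38a4 it was 91.3, 91.2, 99.1 and 100% (5.19, 4.94e-13). The Impact peak with most reads stood at 36.6, 38.6, 94.3 and 89.4% (1.49, 0.000772), so H3K4me3 there lay mostly on the B6 chromosome in both crosses. Another H3K4me3 peak, at chr18:12971000-12975500 inside the H3K36me3 peak, was almost all paternal, at 98.4, 96.9, 99.6 and 92.8% (5.51, 3.56e-12). At Zdbf2 the peak with most reads was not called (-0.02), while the peak overlapping the gene had 73.7, 62.9, 86.8 and 88.1% (1.93, 1.05e-05). Btaf1 was not called, at 38.0, 46.8, 61.2 and 62.1% (0.11, 1.000).

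At the maternally marked genes the promoter marks fell into different patterns. At Grb10 H3K4me3 was maternal, with paternal shares of 4.88, 6.67, 5.33 and 4.35% (log2 -4.10, adjusted p = 1.49e-08), and H3K27me3 paternal, with 93.0, 90.6, 97.5 and 97.1% (4.39, 6.33e-16). Upstream of Meg3 the H3K4me3 share was 3.42, 4.68, 2.78 and 2.63% (-4.86, 8.48e-13), and H3K27me3 within the domain stood at 88.9, 82.4, 95 and 92.9% (3.27, 5.72e-06). Both loci thus carried H3K36me3 and H3K4me3 on one chromosome and H3K27me3 on the other. At the Airn promoter, inside Igf2r, H3K4me3 was 97.9, 100, 95.5 and 96.2% paternal (5.26, 4.20e-10) and at Mcts2 91.0, 84.1, 95.3 and 81.3% (3.14, 7.37e-08), the opposite parent from the partial H3K36me3 bias of the peaks over them.

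H3K4me3 at Gnas and Nespas was read from the peak with most reads, shared by both, with shares of 52.8, 59.7, 49.6 and 58.4% (0.29, adjusted p = 1.000). H3K27me3 within Gnas, at chr2:174319500-174330000, was paternal, with 87.5, 93.6, 87.0 and 87.5% (3.01, 1.16e-08). Just beyond the H3K36me3 peak, at chr2:174349000-174400000, it was maternal, with paternal shares of 26.9, 26.0, 28.4 and 29.0% (-1.35, 2.81e-08). At Zdbf2 H3K27me3 was maternal, with paternal shares of 15.6, 13.2, 12.1 and 11.4% (-2.70, 7.36e-14). At Kcnq1ot1 H3K27me3 lay on the same chromosome as H3K36me3, with paternal shares of 79.5, 83.3, 85.3 and 85.2% (2.38, 3.08e-14); its peak, at chr7:143074000-143231500, ended before the H3K36me3 peak began. The B6/CAST 1 library of H3K4me3 and H3K27me3 had fewer paternal reads on chromosomes 3 and 11, down to 41.3 and 38.9% of a whole chromosome. Without it, Grb10 on chromosome 11 stood at -3.98 (adjusted p = 1.68e-05) for H3K4me3 and 4.26 for H3K27me3.

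**Figure D4:**
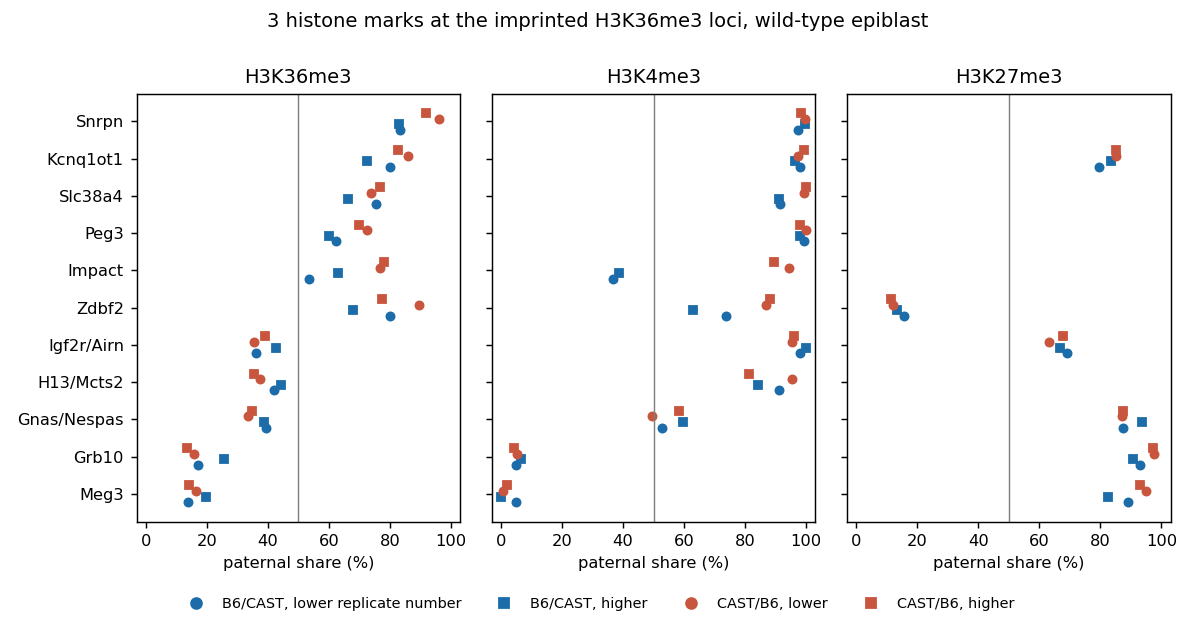
Paternal share of allelic reads (%, x axes) for H3K36me3, H3K4me3 and H3K27me3 at 11 imprinted loci (rows) of wild-type epiblast. There is 1 point per library, blue for B6/CAST and red for CAST/B6. H3K4me3 is the peak with most reads among those overlapping the gene or within 2 kb of its start. H3K27me3 is the peak with most reads over the gene or its H3K36me3 peak, for Igf2r/Airn that of Airn. Empty rows had no informative peak. The H3K36me3 shares run from 13.7% at Meg3 to 96.1% at Snrpn, and H3K27me3 lies on the opposite side at Grb10 (90.6 to 97.5%) and Meg3 (82.4 to 95%) and on the same side at Kcnq1ot1 (79.5 to 85.3%).

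ExE of the same crosses, the other tissue with H3K36me3, shared the strongest biases. The 7980 informative ExE peaks gave 47 calls (0.589%), 32 paternal (0.401%) and 15 maternal (0.188%). The ExE log2 ratio was -2.61 at the Meg3 domain, -1.80 at Grb10, 2.89 at Snrpn, 2.35 at Kcnq1ot1, 1.38 at Slc38a4, 1.30 at Peg3, 0.56 at Impact, -0.75 at H13 and -0.27 at Igf2r, all called in ExE in the same direction as in epiblast. Ide (0.41, adjusted p = 0.000551) and Btaf1 (0.42, adjusted p = 1.27e-08) were called paternal in ExE as well, with paternal shares at Ide of 45.5, 49.3, 62.7 and 70.2%, again higher in the 2 CAST/B6 libraries.

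The difference in parent effect between the tissues was called for 10 of 10180 genes informative in both (0.0982%), below 0 for 9 (0.0884%) and above 0 for 1 (0.00982%), and for 21 with the library as a block. The epiblast was closer to equality than ExE at Sfmbt2, a Polycomb gene, with 50.0, 60.9, 64.5 and 52.7% paternal in epiblast against 89.6, 86.4, 84.7 and 84.3% in ExE (log2 0.45 and 2.68, adjusted p of the difference 6.56e-21). The signalling adaptor gene Gab1 had 0.28 and 1.33 (adjusted p = 6.08e-09) and the chromatin gene Jade1 0.03 and 1.02 (2.74e-14). Sclt1, which shares peaks with Jade1, had 0.04 and 0.60, and Zfp64 0.08 and 0.64 (0.0197). All 5 had no call in epiblast. At Jade1 and Sclt1 the regions summed were not the same in the tissues. Those of Jade1 lay within chr3:41558500-41706000 in epiblast, reaching into Sclt1, and within chr3:41555000-41633000 in ExE. The ExE peaks of Sclt1, within chr3:41555000-41735500, took in that Jade1 peak. The Zfp64 call was lost without B6/CAST replicate 2 and without either CAST/B6 epiblast library. Total H3K36me3 was also higher in ExE at 4 of the 5, with gene body means of 0.449 RPKM in epiblast and 1.56 in ExE at Sfmbt2, 0.600 and 1.34 at Gab1, 1.11 and 2.36 at Jade1 and 0.912 and 1.27 at Zfp64. At Sclt1 it was not, with 0.790 in epiblast and 0.725 in ExE, and the part of the total level was not tested.

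Gnas, Nespas and Gm20721, on one peak, showed the reverse: paternal shares were 39.4, 38.7, 33.5 and 34.7% in epiblast and 44.5, 45.3, 48.4 and 49.3% in ExE (log2 -0.80 and -0.17, adjusted p = 0.000272). The 4 epiblast libraries lay below the 4 ExE libraries, and the call was lost without B6/CAST replicate 2 of the epiblast. Ddc, the dopa decarboxylase gene next to Grb10, stood at 0.06 in epiblast and -1.20 in ExE, where its signal was summed over a peak that also covers Grb10. Pigs, of the glycosylphosphatidylinositol transamidase, stood at -0.69 and 0.12 (adjusted p = 0.0447), the ExE peak covering 21 other genes besides. For both, different peaks were thus compared in the tissues, and the Pigs call was lost without any 1 of the 4 epiblast libraries.

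**Figure D5:**
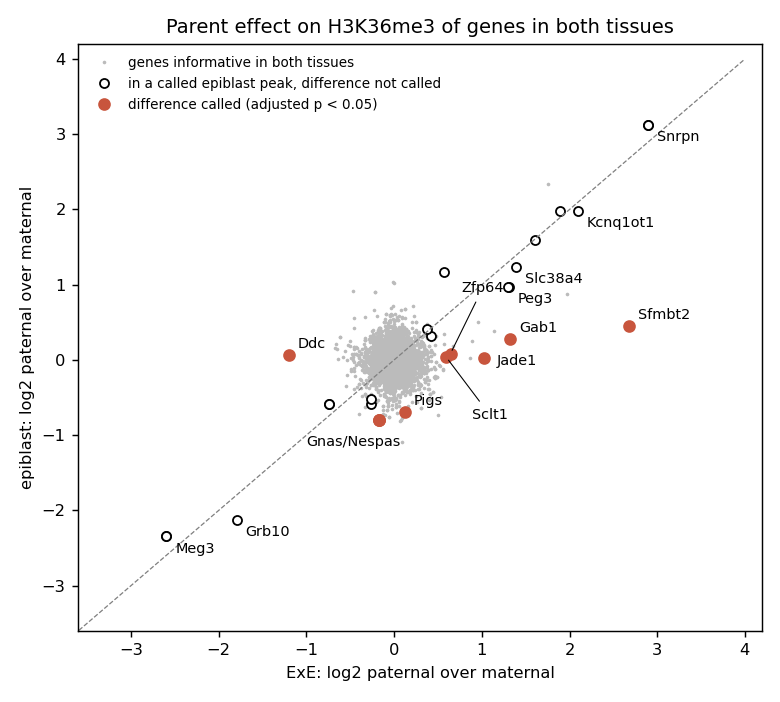
Log2 ratio of paternal over maternal H3K36me3 reads per gene in ExE (x axis) and epiblast (y axis), for the genes informative in both tissues (grey), genes in a called epiblast peak (open circles) and the 10 genes whose difference was called (red); the dashed line marks equal ratios. Meg3, Grb10, Snrpn and Kcnq1ot1 lie near the line, and Sfmbt2, at 2.68 in ExE and 0.45 in epiblast, lies far from it.

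In matDKO/CAST epiblast, whose mothers lacked the enzymes that methylate DNA in the oocyte, H3K36me3 at Snrpn, Grb10 and Kcnq1ot1 was closer to equality than in B6/CAST, which shares its CAST father, and at Meg3 it kept its maternal bias. The difference was tested against B6/CAST at the same 11076 peaks and called at 18 (0.163%), below 0 at 16 (0.144%) and above 0 at 2 (0.0181%), 3 of them among the 17 peaks described here. The paternal share in the 2 matDKO/CAST libraries was 50.0 and 46.9% at Snrpn (difference in log2 -2.33, adjusted p = 3.51e-07), 42.1 and 50.0% at Grb10 (1.62, 0.000444) and 45.5 and 51.9% at Kcnq1ot1 (-1.49, 0.00637). The Meg3 domain had 17.2 and 17.1%, with a log2 ratio of -2.12 (adjusted p = 1.72e-25) that differed from B6/CAST by 0.07 (SE 0.19).

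At the remaining peaks the difference was not called. It was widest at the peak upstream of Grb10, where the paternal shares of 72.7 and 71.4% lay on the other side of 50% from the 30.4 and 38.7% of B6/CAST (2.17, SE 0.59, adjusted p = 0.165), on 3 and 8 maternal and 8 and 20 paternal reads. Shares were 38.6 and 48.0% at Peg3 (-0.82), 59.5 and 51.0% in the body of Slc38a4 (-0.91), 30.8 and 48.9% nearer its start (-1.12), 42.9 and 42.3% in the region between Snrpn and Ndn (-1.59), 44.4 and 33.3% at Impact (-1.31), 47.8 and 55.0% at Gnas (0.88), 47.4 and 50.7% at Igf2r (0.60) and 29.4 and 30.1% at H13 (-0.78). On chromosome 19 they were 47.3 and 50.0% at Btaf1 (-0.06), 47.0 and 45.2% at Ide (-0.39) and 55.6 and 42.2% beside Ide (-0.56). The Zdbf2 peak could not be read, with 0 and 61.9% on few reads. These libraries held 288720 and 780792 allelic reads, and without replicate 3, the deeper one, 3 calls were left and Grb10 and Kcnq1ot1 were lost. Kcnq1ot1 was also lost without either B6/CAST library, and the calls at all peaks then numbered 11 and 10. Reads assigned to strain 129 were added by the authors to the maternal side of matDKO/CAST alone, a step the B6/CAST values did not go through.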

How the data were processed

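Per the study's methods, the authors aligned reads to GRCm38 with B6 and CAST variants masked (Trim Galore 0.4.4 and Bowtie2 2.3.2 per the submitters' processing notes), split them by allele with SNPsplit, called peaks with chromstaR in each cross and merged them over crosses. The deposited allelic tables hold raw read counts per peak and allele, without normalization. The authors also deposited RPKM in 1 kb windows from all aligned reads, regardless of allele, with inputs not subtracted. The positions in the peak names and those in the position columns differed in 19.2% of autosomal peaks of the epiblast H3K36me3 table, and the position columns were used. No column was without a matching sample. Reads spanning no variant carry no parent, so depth and variant density limit precision.

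Groups followed the labels. Peaks or genes with at least 20 reads in an allele column of a wild-type library were tested with edgeR 4.0.16 (quasi-likelihood test, TMM factors, Benjamini-Hochberg adjustment over all features tested, two-sided, threshold 0.05) in R 4.3.3, checked on simulated counts. Each cross was fitted alone, and the 4 libraries jointly with cross, strain and parent. Genes (GENCODE vM21) took the summed counts of overlapping peaks. DESeq2 1.42.0 was an alternative. The maternal and paternal columns come from 1 library, so the library is a true block by design, although their deviations from the cross mean hardly correlated (r = 0.0380 in B6/CAST and 0.0132 in CAST/B6 over 11076 peaks). Sequence was read from RefSeq GRCm38, and Python 3.11.15, pandas 2.3.3 and matplotlib 3.10.9 were used.

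The regions, gene lists and tests were chosen with earlier results of these data known. Named were the peaks called in both crosses or jointly, the informative members of the lists with at least 100 reads, calls more than 1 Mb from the catalogue and catalogue genes with at least 3 informative peaks. The library values of Setd2, Lin28a and L1td1, the genes without a peak and the genes called between tissues or crosses were picked as examples after their values were seen. The catalogue is the study's list of imprinted genes.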

Additional observations from a re-analysis of the deposited data

Results flagged for a closer look

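The parent effect on H3K36me3 differed between epiblast and ExE, by a test of the difference itself, at 10 genes on a log2 scale of epiblast minus ExE. The difference was -2.23 at Sfmbt2, -1.05 at Gab1, -0.99 at Jade1, -0.56 at Sclt1 and -0.56 at Zfp64, where the paternal chromosome carried more of the mark in ExE. The regions summed at Jade1 and Sclt1 were not the same in the tissues. The difference was -0.63 at Gnas, Nespas and Gm20721, which share 1 peak with a maternal bias in epiblast. It was -0.81 at Pigs and 1.26 at Ddc, where the ExE peaks also covered other genes. Pigs lost the call without any 1 of the 4 epiblast libraries, Zfp64 without B6/CAST replicate 2 or either CAST/B6 library, and Gnas, Nespas and Gm20721 without B6/CAST replicate 2.

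Between matDKO/CAST and B6/CAST the parent effect differed by -2.33 at Snrpn, 1.62 at Grb10 and -1.49 at Kcnq1ot1 (matDKO/CAST minus B6/CAST, log2). Between the reciprocal wild-type crosses it differed at 3 called peaks by the strain term of the joint fit, which was 0.48 at Grb10, -0.53 at Impact and -0.77 at Snrpn. In all 3 the bias was smaller in B6/CAST.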

How the results depend on the processing

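The limits are set by 2 pools per cross and by the 734539 allelic reads in the shallowest library. With DESeq2 the peaks called in both crosses numbered 4 in place of 7, those of the joint fit 10 in place of 17, the strain-specific peaks 1 in place of 47 and the strain term 59 in place of 493. With an unadjusted p in 1 of the crosses, 13 peaks were called for a parent. With the library as a replicate block there were 25 strain-specific peaks, 20 parent calls over peaks, 43 over genes and 21 tissue differences, 5 of them above 0. At an adjusted p of 0.01 the strain term was called at 265 peaks. Only peaks overlapping a single gene left 6 called genes. One shared size per library gave 652 strain calls, 160 of them with CAST higher, against 220 of 493, and the 17 parent calls kept their number. Without each library in turn, counts ran from 5 to 7 in both crosses, 13 to 17 in the joint fit, 31 to 34 over genes, 15 to 24 strain-specific, 185 to 382 for the strain term, 5 to 11 between tissues (5 without B6/CAST replicate 2) and 3 to 21 for matDKO/CAST. The matDKO/CAST difference changed sign at Meg3 (-0.024 with the block, and from -0.18 to 0.46 without each library in turn) and beside Ide (-0.73 to 0.16 without each library), all uncalled. The cause of these changes was not tested. Of the named peaks under all settings, 146 parent effects kept their side of the threshold and 24 lost it. Lost with DESeq2 were Zdbf2, the peak of Slc38a4 near its start, Btaf1, both peaks at Ide, H13 and the region between Snrpn and Ndn. Lost without the read filter were Btaf1 and the peak beside Ide. Btaf1 and the peak beside Ide were lost without any 1 library. Ide, H13 and that peak of Slc38a4 were also lost without B6/CAST replicate 2, and Zdbf2 and that peak of Slc38a4 without CAST/B6 replicate 1. H13 and Ide were also lost without CAST/B6 replicate 2. Cdkl4, AC131712.1 and Btaf1 lost their gene call without any 1 library, Airn and Igf2r without CAST/B6 replicate 1, and Ide without the second replicate of either cross. With DESeq2 the gene calls of Airn, Cdkl4, AC131712.1, Btaf1, Ide, H13, Mcts2 and Gm26841 were lost. With a 2 kb limit 8 loci in place of 7 had H3K4me3 of the same parent.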

Other observations

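In matDKO/CAST, 15 peaks without a wild-type parent call differed from B6/CAST, 14 with fewer paternal reads and 1 with more. Of these, 6 lay on chromosome 2 (Chp1, Ctdspl2, Snx5, Raly and both peaks of Uqcc1), 3 on chromosome 17 (Srrm2, Ccnf and Xpo5) and the others on chromosomes 1, 3, 13, 15 and 16. At Raly the paternal share was 4.76 and 5.69% in the 2 matDKO/CAST libraries, at the chromosome 1 peak of Mcm6 and Dars 2.50 and 5.69%, and at Slf1 7.69 and 7.14%. At Tmem267, the one peak on the other side, it was 100 and 94.1%. In both matDKO/CAST libraries 11 of the 15 had at most 30% paternal reads. The mothers' mixed B6 and 129 background, absent from the wild-type crosses, cannot be told apart from the genotype here.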
